A study of Homo sapiens with 6 samples.

Results

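The 10 genes described here act in the uptake, ester storage, release and transport of cholesterol. Its route leads from outside the cell to the inner mitochondrial membrane, where steroid synthesis starts. The genes were taken by name for these roles: STAR, STARD3, TSPO, SCARB1, SOAT1, LIPE, NPC1, NPC2, GRAMD1A and GRAMD1B. All 10 were matched by symbol among the 34869 genes of the deposited table. RNA was sequenced as paired ends from NCI-H295R, an established human adrenocortical carcinoma line that makes adrenal steroids. The 3 libraries called shTPD52 came from cells given a TPD52-directed short hairpin RNA by lentivirus, and the 3 called shCtrl from cells given a non-targeting hairpin in the same way. Both groups therefore share the line, its serum- and insulin-containing medium and the lentiviral transduction, and all libraries come from 1 tumour-derived line. Values are FPKM, reads scaled to gene length and library depth, and values of single libraries are given in the order of replicates 1, 2 and 3. No label names separate cultures as the source of the replicates, so the p-values speak of the spread among these libraries, and that spread may be technical.

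Adrenal cells take up lipoprotein cholesterol through receptors such as SCARB1, store it as esters in lipid droplets, and release it again when steroids are needed. Cholesterol that enters through lysosomes is handed from NPC2 to NPC1 for export, and GRAMD1 proteins move it from the plasma membrane to the endoplasmic reticulum. STAR then brings it into mitochondria, the acutely regulated step of steroid synthesis, and the side-chain cleavage enzyme CYP11A1 turns it into pregnenolone. The comparison asks how lowering TPD52, which the series title ties to aldosterone synthesis, goes with the RNA levels of this route.

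With the knockdown, NPC1 fell by 38.2% and GRAMD1A by 20.1% in mean FPKM. The NPC1 call held in 13 of 19 alternative settings and that of GRAMD1A in 8 of 19. GRAMD1A lost its call with a correction for gene length and GC content (log2 -0.072, limma adjusted p = 0.487). None of the 10 genes rose, and 8 did not pass the test; with an unadjusted p under 0.05 there were 0 higher genes as well, and limma-voom on recovered reads called 0 higher. The length and GC correction was the exception, with SCARB1 and GRAMD1B called higher (log2 0.40 and 0.31). In that fit 1327 of all 12707 genes were called higher. STAR itself stood at nearly the same level in both groups, a mean of 135.5 ± 7.13 FPKM (SD, n = 3) with the control hairpin and of 135.1 ± 16.0 FPKM (SD, n = 3) with the TPD52 hairpin. The test was limma on log2(FPKM + 0.5), a scale that understates the change of low genes, with Benjamini-Hochberg adjustment over the 12782 genes averaging 1 FPKM or more, and a threshold of 0.05. The 2 of 10 called lower stand beside 12.7% of all tested genes called lower, 5.63% called higher and 18.3% called in either direction. Leaving out shTPD52 replicate 2 gave 3 lower genes, and leaving out any other library gave 0. The whole table moved the same way. Of all 12782 tested genes, 4209 were lower without shTPD52 replicate 2, and 39 to 575 without any other library. These are bulk RNA values, in which fewer cells with a transcript and less RNA per cell cannot be told apart.

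The start regions of NPC1 and GRAMD1A are shown because these are the genes that fell, and that of NPC2 because its protein works with NPC1 while its RNA did not pass. Each window holds 300 bases around a RefSeq transcription start on GRCh38.p14, most of them upstream, printed 5′ to 3′ along the transcribed strand. NPC1 is chr18:23586457-23586756 on the minus strand. GRAMD1A has a pair of starts in the table, an upstream one at chr19:34994477-34994776 and a downstream one at chr19:35000073-35000372, both on the plus strand. The farther upstream of the NPC2 windows is chr14:74493463-74493762 on the minus strand. Capitals mark matches to the letter patterns described below.
NPC1: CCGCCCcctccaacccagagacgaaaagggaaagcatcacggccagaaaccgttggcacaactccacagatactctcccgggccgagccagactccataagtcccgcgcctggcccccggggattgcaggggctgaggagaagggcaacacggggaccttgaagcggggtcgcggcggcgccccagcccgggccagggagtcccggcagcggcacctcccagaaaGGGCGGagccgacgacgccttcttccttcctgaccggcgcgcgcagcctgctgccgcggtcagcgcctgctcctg
GRAMD1A upstream start: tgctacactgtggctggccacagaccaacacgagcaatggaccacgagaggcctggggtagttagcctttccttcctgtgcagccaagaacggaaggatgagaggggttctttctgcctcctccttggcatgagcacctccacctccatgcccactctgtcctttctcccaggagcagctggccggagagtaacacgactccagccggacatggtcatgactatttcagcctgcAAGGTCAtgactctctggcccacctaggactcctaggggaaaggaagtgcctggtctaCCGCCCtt
GRAMD1A downstream start: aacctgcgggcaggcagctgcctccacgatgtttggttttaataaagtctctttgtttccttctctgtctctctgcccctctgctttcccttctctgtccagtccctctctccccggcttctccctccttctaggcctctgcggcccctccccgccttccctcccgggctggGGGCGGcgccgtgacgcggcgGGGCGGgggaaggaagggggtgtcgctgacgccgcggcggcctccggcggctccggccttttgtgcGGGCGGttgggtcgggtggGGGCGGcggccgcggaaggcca
NPC2: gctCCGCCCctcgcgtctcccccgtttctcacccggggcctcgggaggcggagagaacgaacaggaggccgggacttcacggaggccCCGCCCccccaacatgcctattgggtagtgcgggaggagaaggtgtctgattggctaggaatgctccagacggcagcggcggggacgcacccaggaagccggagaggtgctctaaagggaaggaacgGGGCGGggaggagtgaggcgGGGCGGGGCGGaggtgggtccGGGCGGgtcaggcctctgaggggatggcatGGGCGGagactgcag

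Both strands of these windows were searched for CACGTG (the E-box core), AAGGTCA (the site of NR5A1, the steroidogenic factor SF-1), TCACNCCAC (the sterol regulatory element), TGACGTCA (the cAMP response element) and GGGCGG (the GC box bound by Sp1). None of these patterns contains another. Of 35116 windows of the same length in the table, 7.26%, 3.92%, 1.13%, 1.85% and 45% held each of them in that order. The upstream GRAMD1A window holds AAGGTCA, which begins 16 bases before the start. NPC1 holds GGGCGG on both strands, 2 matches in all, and the other capitals in these windows are GC boxes too. The CACGTG, TCACNCCAC and TGACGTCA patterns have no match in any window of the 7 genes found there, namely these 3 with STARD3, TSPO, SOAT1 and LIPE. STAR, SCARB1 and GRAMD1B have no entry in the table used. A match is a description of letters, and no binding was measured here.

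The libraries held 29544341 to 38396624 reads, worked back from the FPKM steps. TPD52 checks the labels: it was at 1.42, 1.18 and 1.29 FPKM under the control hairpin and at 0.630, 0.635 and 0.655 FPKM under its own, with an adjusted p of 0.0218 by limma, a call that held in 10 of 19 alternatives. All 11 adrenocortical marker genes fixed for the check reached 1 FPKM in at least 1 library, with a summed level of 419 to 442 FPKM in shCtrl and 485 to 493 FPKM in shTPD52. Endothelial markers (5 genes, 0 of them reaching 1 FPKM) summed to at most 0.305 FPKM and PTPRC, the common leukocyte marker, was at most 0.00636 FPKM. Medulla markers (4 in the table, 2 reaching it) summed to 44.8 to 49.0 FPKM in shCtrl and 35.1 to 38.5 FPKM in shTPD52, nearly all of it CHGB, while TH was at 0 to 0.123 FPKM. Fibroblast markers (6 genes, 2 reaching it) summed to 23.2 to 24.9 and 19.3 to 24.4 FPKM, nearly all of it COL3A1, while COL1A2 was at most 0.0125 FPKM. Reads from mitochondrially encoded genes made up 17.7% to 18.7% of shCtrl and 19.8% to 24.5% of shTPD52 libraries. On rescaling to FPKM outside these genes NPC1 kept its call (log2 -0.58, limma adjusted p = 0.0224) and GRAMD1A lost it (-0.245, limma adjusted p = 0.0648). The part of the marker and mitochondrial differences in the results was not otherwise tested. On the first principal component shTPD52 replicate 2 lay at 0.291, between the shCtrl libraries (at most -16.4) and the other shTPD52 libraries (27.3 and 35.3).

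**Figure D1:**
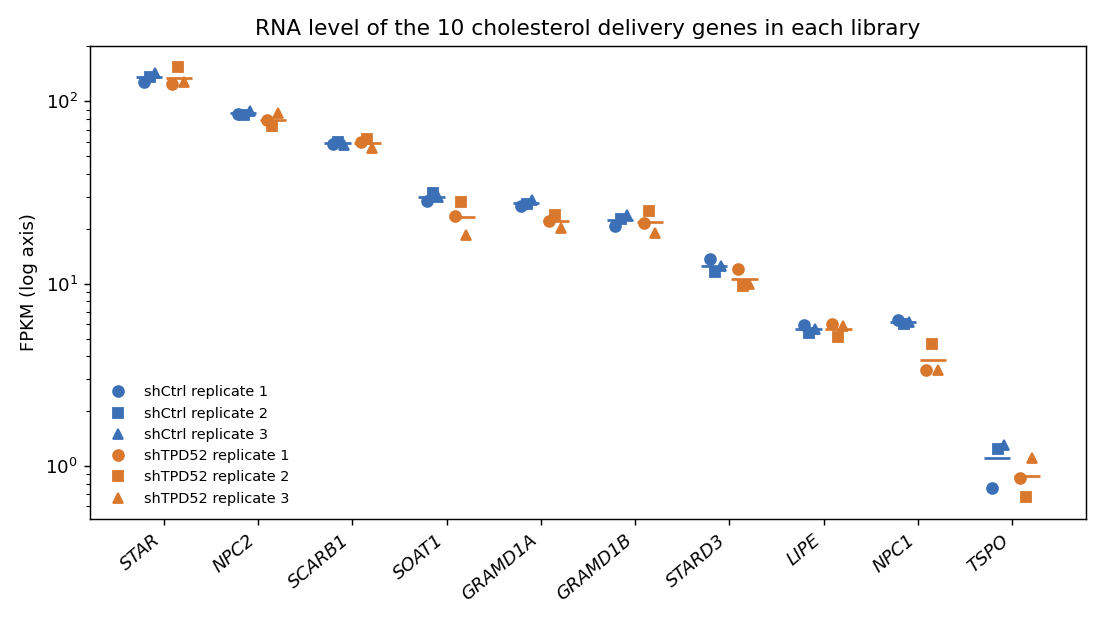
FPKM of each gene (log axis) in each of the 6 libraries, with shCtrl in blue, shTPD52 in orange, marker shape for the replicate number and a bar for the group mean. STAR is highest in every library and TSPO lowest, and the orange points of NPC1 lie below all of its blue points.

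The levels are compared here per length of gene. STAR averaged 135.3 FPKM over the 6 libraries, NPC2 82.6, SCARB1 59.0, SOAT1 26.6, GRAMD1A 24.9, GRAMD1B 22.2, STARD3 11.6, LIPE 5.64, NPC1 4.98 and TSPO 0.988 FPKM. Each gene down to SCARB1 exceeded the next in 6 of 6 libraries with no overlap of ranges. SOAT1 and GRAMD1A overlapped, as did GRAMD1A and GRAMD1B, each pair in the stated order in 5 of 6 libraries. LIPE and NPC1 also overlapped, with NPC1 above LIPE in the 3 shCtrl libraries and below it in the 3 shTPD52 libraries. The SCARB1 level depends on the gene model: its FPKM values correspond to a gene length of 14887 bases, where the exons of GENCODE release 29 cover 7741. At that annotated length SCARB1 would average 113 FPKM and stand above NPC2, which would average 77.7 FPKM at its own.

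STAR (ENSG00000147465, GRCh38 chromosome 8, 38143649 to 38151265, minus strand) gave 128, 136 and 142 FPKM in the controls. The knockdown libraries gave 124, 154 and 128 FPKM, so that group spanned the whole control range. The log2 difference was -0.0094 (SE 0.099, 95% interval -0.24 to 0.22, limma adjusted p = 0.955). That interval corresponds to 0.848 to 1.16 times the control level, and the sign turned with the scaling (log2 0.11 with median-ratio scaling). The values rest on 16322 to 24884 reads per library, and 338 of its exonic bases overlap ASH2L, a gene on the opposite strand at a mean of 10.4 FPKM. No change of STAR beyond the spread between replicates was seen.

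The genes whose profile over the 6 libraries was most like that of STAR were sought among 6454 genes averaging 5 FPKM or more. They were HIBADH, a mitochondrial valine-breakdown enzyme gene (Pearson r 0.988), HSPA2 (r 0.979), ZDHHC5 (r 0.9753), C6orf120 (r 0.9748) and NIPSNAP3A (r 0.973). Each was highest in shTPD52 replicate 2, like STAR. The coefficient runs over 6 libraries that all genes share, 56 genes exceeded 0.9, and it is given as a description.

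STARD3 (ENSG00000131748, chromosome 17, 39637065 to 39663484, plus strand), which carries a STAR-related lipid transfer domain on late endosomes, gave 13.6, 11.5 and 12.5 FPKM in the controls and 11.99, 9.75 and 9.98 FPKM in the knockdown. Replicates 2 and 3 of the knockdown were below every control, while replicate 1 lay inside the control range. The log2 difference of -0.24 (95% interval -0.49 to 0.013, limma adjusted p = 0.146) did not pass, and it went to -0.013 after correction for gene length and GC content.

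TSPO (ENSG00000100300, chromosome 22, 43151514 to 43163242, plus strand), an outer mitochondrial membrane protein long studied as a cholesterol-binding partner of this step, was the lowest of the 10. Its controls gave 0.759, 1.24 and 1.30 FPKM and its knockdown libraries 0.857, 0.675 and 1.10 FPKM, on 35 to 68 reads per library. The groups overlapped. Its mean of 0.988 FPKM lies just under the filter of 1 FPKM, so it was added to the fit, where the log2 difference was -0.21 (95% interval -0.66 to 0.25, limma adjusted p = 0.455). These libraries do not settle whether TSPO changed within that interval.

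NPC1 (ENSG00000141458, GRCh38 chromosome 18, 23506184 to 23586898, minus strand), the membrane protein that exports cholesterol from late endosomes and lysosomes, had the largest difference of the 10. Its control libraries gave 6.31, 6.03 and 6.13 FPKM, an SD of only 0.141 FPKM. Under the TPD52 hairpin the values were 3.37, 4.69 and 3.36 FPKM, all below the lowest control, with replicate 2 the nearest to the controls. The log2 difference was -0.64 (SE 0.13, 95% interval -0.95 to -0.34), and NPC1 passed as lower with an adjusted p of 0.0208 by limma.

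The NPC1 difference was negative in all 19 alternatives and passed in 13. It was -0.79 (limma adjusted p = 0.00121) without shTPD52 replicate 2 and -0.36 (limma adjusted p = 0.0258) after the length and GC correction. Without a filter, or without any 1 of the other libraries, it kept between -0.57 and -0.66 and lost its call (adjusted p up to 0.0926). The gene shares 604 exonic bases with RMC1 on the opposite strand (mean 6.39 FPKM), and the strand setting of the counting is not given in the sources used here.

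NPC2 (ENSG00000119655, chromosome 14, 74476192 to 74494177, minus strand), the soluble lysosomal protein that hands cholesterol to NPC1, gave 84.7, 83.8 and 89.0 FPKM in the controls and 78.9, 73.5 and 85.9 FPKM in the knockdown. Replicate 3 of the knockdown lay inside the control range. The log2 difference was -0.11 (95% interval -0.30 to 0.075, limma adjusted p = 0.329), close to the median of all tested genes, -0.11.

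**Figure D2:**
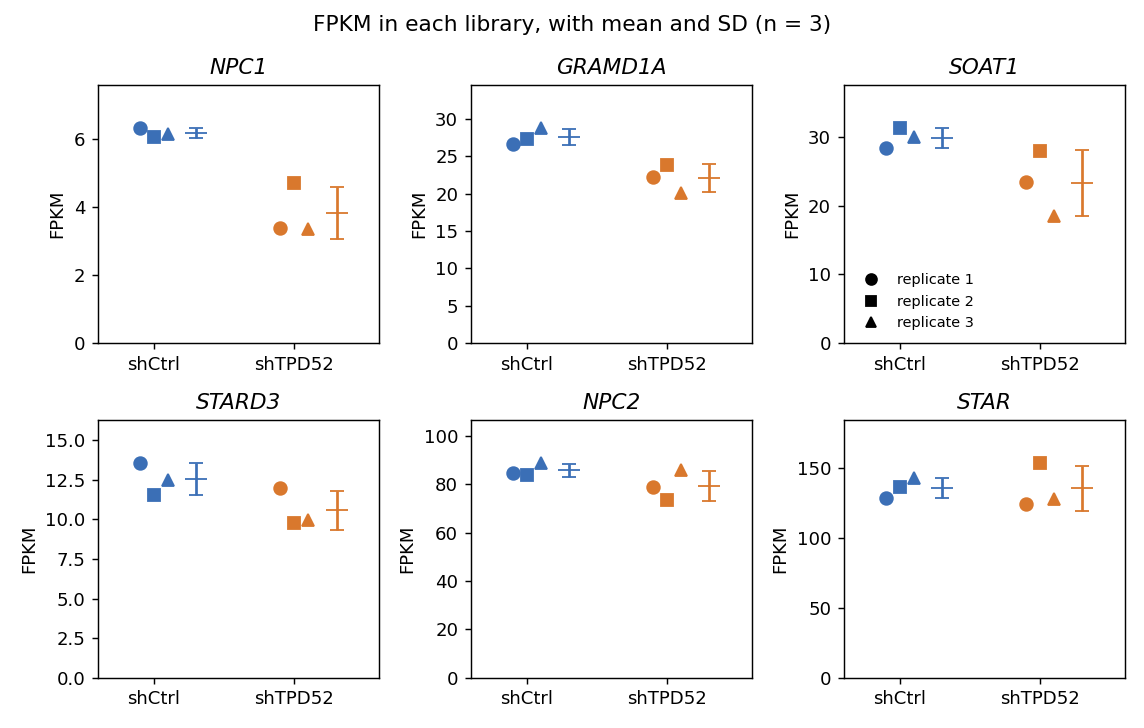
FPKM of 6 genes in each library, shCtrl in blue and shTPD52 in orange, with marker shape for the replicate number and mean ± SD (n = 3) beside the points. NPC1, GRAMD1A and SOAT1 show no overlap between groups, and in each of them shTPD52 replicate 2 lies nearest to the controls.

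GRAMD1A (ENSG00000089351, GRCh38 chromosome 19, 34994784 to 35026471, plus strand) and GRAMD1B encode the sterol transfer proteins Aster-A and Aster-B, which sit in the endoplasmic reticulum and draw cholesterol from the plasma membrane. For GRAMD1A the controls gave 26.7, 27.4 and 28.8 FPKM and the knockdown libraries 22.2, 23.9 and 20.2 FPKM. The groups did not overlap, and the log2 difference of -0.32 (SE 0.087, 95% interval -0.52 to -0.12) passed with an adjusted p of 0.0422 by limma. That call stood close to the threshold and held in 8 of 19 alternatives. It ended with median-ratio scaling (-0.20, limma adjusted p = 0.0927) and with the length and GC correction, where it was -0.072 with an adjusted p of 0.487 by limma. Antisense genes cover 84 and 40 of its exonic bases.

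GRAMD1B (ENSG00000023171, chromosome 11, 123358428 to 123627774, plus strand), the family member enriched in steroid-making tissue, gave 20.8, 22.7 and 23.9 FPKM in the controls and 21.6, 25.2 and 18.9 FPKM in the knockdown. Its knockdown libraries ran from below to above the controls. The log2 difference was -0.044 (95% interval -0.31 to 0.22, limma adjusted p = 0.8), and after the length and GC correction it was 0.31 and passed as higher (limma adjusted p = 0.0184).

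SCARB1 (ENSG00000073060, chromosome 12, 124776856 to 124882668, minus strand) encodes the scavenger receptor that takes up cholesterol esters from HDL. Its difference had the smallest standard error of the 10 (0.074), with controls at 58.5, 59.9 and 57.8 FPKM and knockdown libraries at 60.2, 61.9 and 55.5 FPKM. The groups overlapped and the log2 difference was 0.0096 (95% interval -0.16 to 0.18, limma adjusted p = 0.936). After the length and GC correction it was 0.40 and passed as higher (limma adjusted p = 0.0154). With the annotated length in place of the one that gives whole reads, a check added after the data were seen, it was 0.28 (limma adjusted p = 0.0225).

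SOAT1 (ENSG00000057252, chromosome 1, 179293714 to 179358680, plus strand) makes cholesterol esters for storage, and LIPE, the hormone-sensitive lipase, splits them again. SOAT1 gave 28.4, 31.4 and 30.0 FPKM in the controls and 23.5, 28.0 and 18.5 FPKM in the knockdown. The groups did not overlap, but the knockdown libraries were spread over 4.77 FPKM (SD) against 1.46 FPKM in the controls. The log2 difference of -0.37 (95% interval -0.70 to -0.044, limma adjusted p = 0.0975) did not pass. Without shTPD52 replicate 2 it was -0.51 and passed (limma adjusted p = 0.00895).

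LIPE (ENSG00000079435, chromosome 19, 42401507 to 42427426, minus strand) gave 5.94, 5.34 and 5.61 FPKM in the controls and 6.03, 5.09 and 5.84 FPKM in the knockdown. The groups overlapped, with replicate 2 the lowest knockdown library. The log2 difference was 0.0049 (95% interval -0.23 to 0.24, limma adjusted p = 0.977). LIPE shares 500 exonic bases with its antisense gene LIPE-AS1 (mean 1.24 FPKM), and reads of the pair cannot be told apart without strand.

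**Figure D3:**
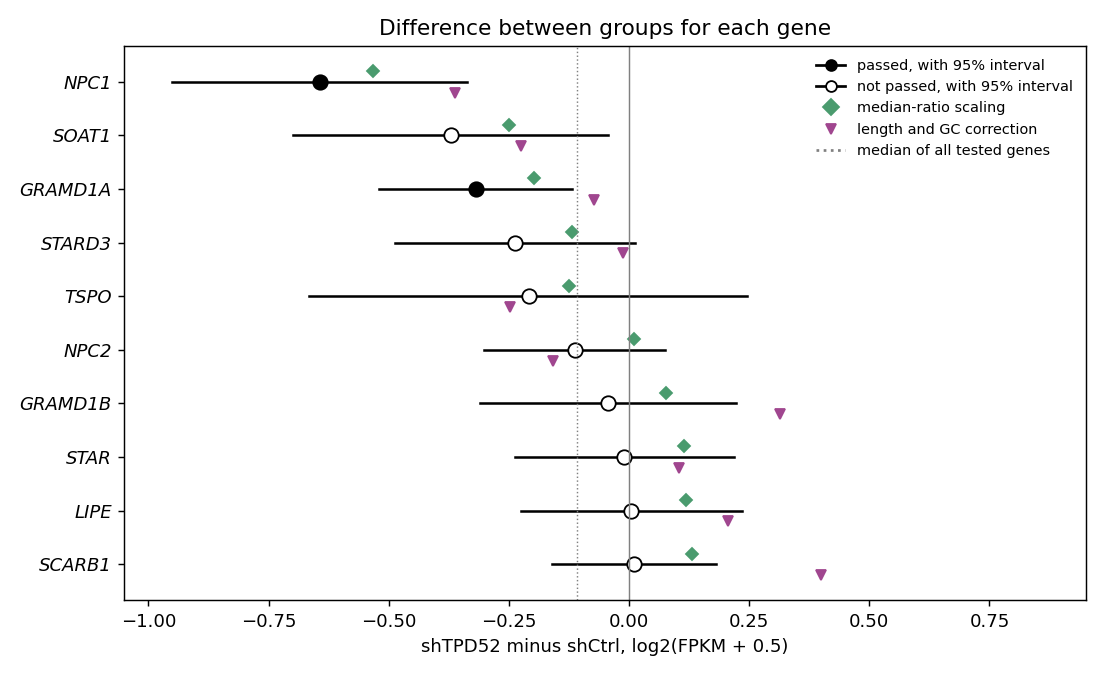
Difference between the group means of log2(FPKM + 0.5) for each gene, with its 95% interval from limma, with diamonds for median-ratio scaling and triangles for the length and GC correction. NPC1 lies lowest at -0.64 and stays negative under both, while GRAMD1B and SCARB1 move to 0.31 and 0.40 after the length and GC correction.

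Across the 10 genes, 3 had groups that did not overlap, all lower in shTPD52, beside 28.3% of all tested genes that did not overlap in that direction, 13.8% in the other and 42.0% in either. The 3 of 10 are near that background. The median log2 difference of the 10 was -0.16, and that of all tested genes was -0.11. shTPD52 replicate 2 lay nearest to the shCtrl mean of the 3 knockdown libraries for 3 of the 10, NPC1, GRAMD1A and SOAT1, against 56.6% of all tested genes. TPD52 did not share that pattern: its log2 distance from the shCtrl mean was -0.66 in replicate 2, beside -0.67 and -0.64 in replicates 1 and 3.

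Within each library 4 pairs of genes were compared as differences of log2(FPKM + 0.5) by an exact permutation test, two-sided, which cannot go below 0.1 with 3 against 3 libraries. In plain FPKM NPC1 stood at 0.0745, 0.0720 and 0.0689 times NPC2 in the controls and at 0.0426, 0.0638 and 0.0391 times NPC2 in the knockdown. Every knockdown ratio was below every control ratio, and the log2 difference was -0.53 (exact permutation p = 0.1, adjusted over the 4 pairs 0.2). Without the added 0.5 FPKM it was -0.60. GRAMD1A stood at 1.28, 1.21 and 1.21 times GRAMD1B in shCtrl and at 1.03, 0.950 and 1.07 times in shTPD52. These groups did not overlap either, with a log2 difference of -0.28 on the log2(FPKM + 0.5) scale (exact permutation p = 0.1, adjusted 0.2), and here replicate 2 was the farthest from the controls.

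The ratio of SOAT1 to LIPE was 4.79, 5.87 and 5.35 in shCtrl and 3.89, 5.50 and 3.16 in shTPD52, overlapping at replicate 2 (exact permutation p = 0.3, adjusted 0.4). The ratio of STAR to STARD3 was 9.44, 11.8 and 11.4 in shCtrl and 10.4, 15.7 and 12.8 in shTPD52 (exact permutation p = 0.4, adjusted 0.4). Both pairs overlapped between groups.

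**Figure D4:**
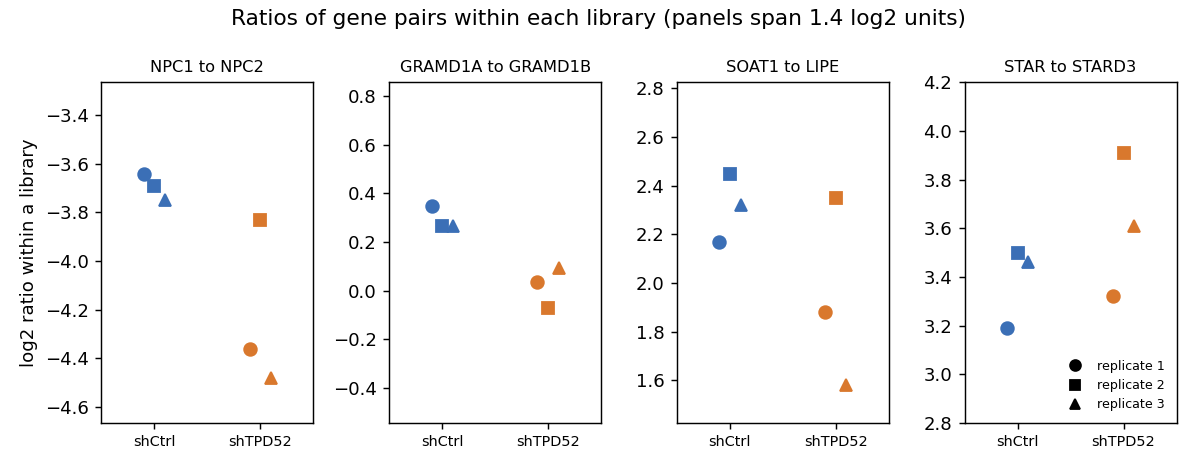
Log2 ratio of FPKM + 0.5 for 4 gene pairs within each library, shCtrl in blue and shTPD52 in orange, with marker shape for the replicate number and the same span of values in each panel. The groups do not overlap for NPC1 to NPC2 and for GRAMD1A to GRAMD1B, and they overlap for the other pairs.

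The steps around these genes were followed in 7 lists with 100 genes in the table, of which 79 were tested. Of these, 3 were higher, 11 were lower and 65 did not pass, so 17.7% were called, near the 18.3% of all tested genes. Their median log2 difference was -0.10, beside -0.11 for all. The counts of single lists below stand beside 12.7% of all tested genes called lower and 5.63% called higher. Groups that did not overlap on the higher side were 13.8% of all tested genes. The number of list genes called in either direction, 14 with all libraries, went to 41 without shTPD52 replicate 2. It was between 0 and 6 without any other single library. Among all 12782 tested genes, 5825 were called without shTPD52 replicate 2 and 87 to 897 without any other library.

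Of 10 tested lipoprotein uptake genes, 3 fell and 7 did not pass, beside 12.7% of all tested genes called lower. LRP1, a large endocytic receptor, went from 12.7, 11.9 and 12.3 FPKM in shCtrl to 4.70, 6.76 and 4.40 FPKM in shTPD52, a log2 difference of -1.17 with an adjusted p of 0.00745 by limma. CD36, a scavenger receptor for fatty acids and lipoproteins, fell by 0.54 (limma adjusted p = 0.0144) and VLDLR, the very low density lipoprotein receptor, by 0.55 (limma adjusted p = 0.0301). The LRP1 call held in 18 of 19 alternatives, that of CD36 in 15 of 19 and that of VLDLR in 11 of 18. With the length and GC correction the differences shrank to -0.69 for LRP1, -0.38 for CD36 and -0.23 for VLDLR. There VLDLR lost its call (limma adjusted p = 0.087), which it kept with annotated lengths (-0.32, limma adjusted p = 0.0351).

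Of 6 tested genes of ester storage and hydrolysis, 1 fell and 5 did not pass. It was PLIN3, a lipid droplet coat protein, which fell by 0.27 (limma adjusted p = 0.0391); the call held in 9 of 19 alternatives and ended with median-ratio scaling (-0.14, limma adjusted p = 0.225). SOAT2, the paralogue of SOAT1, had 0 to 4 reads per library, at most 0.0631 FPKM. Of 10 tested genes of lysosomal and endosomal handling, 2 fell and 8 did not pass. GPR155, a lysosomal cholesterol sensor, fell by 0.58 (limma adjusted p = 0.0369) and LAMP1, a lysosomal membrane protein, by 0.28 (limma adjusted p = 0.04). The GPR155 call held in 9 of 18 alternatives and that of LAMP1 in 7 of 19, where LAMP1 went to -0.16 with median-ratio scaling and to -0.11 with the length and GC correction. LIPA, the acid lipase that frees cholesterol upstream of NPC2, had a log2 difference of 0.16 (limma adjusted p = 0.417).

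Among 15 tested genes of sterol transfer proteins, their relatives and anchors, OSBPL1A fell by 0.67 (limma adjusted p = 0.0393) and OSBPL6 by 0.59 (limma adjusted p = 0.0208), both oxysterol-binding protein relatives, and 13 did not pass. Their calls held in 12 and 11 of 18 alternatives. STARD10 and STARD7, relatives of STAR that bind phospholipids, did not overlap between groups on the higher side but did not pass, with log2 differences of 0.44 and 0.20 (limma adjusted p = 0.0605 and 0.106). The list of outer membrane partners is wider than its name and also holds proteins of other compartments. Among its 22 tested genes, TOMM40, the import pore, rose by 0.42 (limma adjusted p = 0.0472) and MFN2, which tethers and fuses mitochondria, fell by 0.50 (limma adjusted p = 0.0206). ATAD3B fell by 0.42 (limma adjusted p = 0.0429), but reads can be exchanged with its near-identical copies, and its call held in 7 of 18 alternatives, that of TOMM40 in 12 of 19 and that of MFN2 in 13 of 19. VDAC1, the outer membrane channel, had a log2 difference of -0.080 (limma adjusted p = 0.546).

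At the receiving end, 5 genes of the mitochondrial steroid steps were tested, and 2 rose, 1 fell and 2 did not pass. Of all tested genes 5.63% were called higher and 12.7% lower. FDX1, the ferredoxin that feeds electrons to CYP11A1, went from 24.8, 24.3 and 22.8 FPKM in shCtrl to 30.3, 34.9 and 31.3 FPKM in shTPD52, a log2 difference of 0.41 that passed with an adjusted p of 0.0202 by limma. CYP11A1 was higher in every knockdown library, at 77.5, 65.3 and 83.0 FPKM against 59.7, 54.7 and 61.9 FPKM, but its log2 difference of 0.35 did not pass (limma adjusted p = 0.0532). That changed under 7 of 19 alternatives: correcting for length and GC content gave 0.42 with an adjusted p of 0.0174 by limma, limma-voom on recovered reads an adjusted p of 0.0443, and leaving out shTPD52 replicate 2 one of 0.00425. FDXR, the reductase that charges the ferredoxin, had a log2 difference of 0.087 (limma adjusted p = 0.579). CYP11B2, aldosterone synthase, rose by 1.24 (limma adjusted p = 0.0115), though reads can be exchanged with its near-identical neighbour CYP11B1. NNT, the transhydrogenase that supplies mitochondrial NADPH, fell by 0.58 (limma adjusted p = 0.0415). The FDX1 call held in 14 of 19 alternatives; it was lost on testing all genes and on leaving out shTPD52 replicate 1 or any control library (largest limma adjusted p 0.104). CYP11B2 held in 17 of the 19 and NNT in 12.

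Of the 11 genes tested for efflux and sterol sensing 0 passed in limma, where 18.3% of all tested genes passed, and limma-voom on recovered reads called 0. In limma 3 had an unadjusted p under 0.05, with SCAP (log2 -0.24) and MBTPS1 (-0.26) lower and INSIG1 (0.34) higher. SREBF2, the sterol-responsive transcription factor, was at 10.8 to 11.8 FPKM in shCtrl and at 8.61 to 11.7 FPKM in shTPD52 (log2 difference -0.19, limma adjusted p = 0.288), and the groups overlapped.

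**Figure D5:**
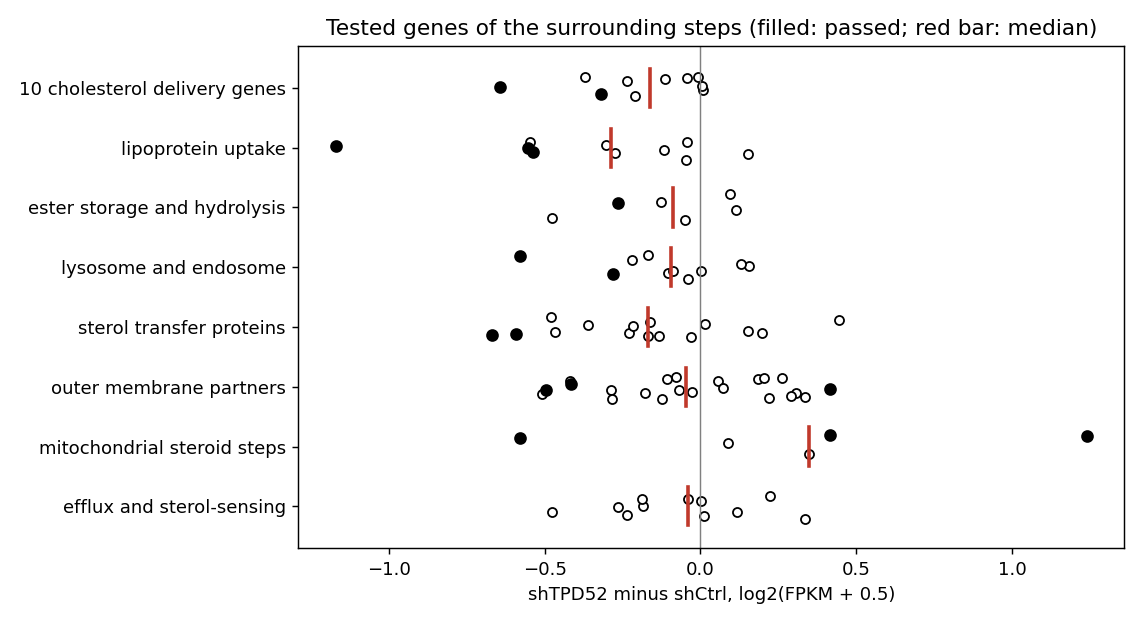
Difference between groups in log2(FPKM + 0.5) for each tested gene of the 10 cholesterol delivery genes (TSPO added) and of the 7 surrounding lists, with filled points for genes that passed and a red bar for the median of each row. Of the 10 uptake genes 9 lie left of 0, with LRP1 at -1.17, and the median of all tested genes is also left of 0 (-0.11). The mitochondrial steroid steps reach 1.24 with CYP11B2.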

How the data were processed

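RNA from 3 shCtrl and 3 shTPD52 libraries of NCI-H295R cells was compared, with groups and replicate numbers from the sample titles. The authors deposited FPKM per gene, 1 column per library. HISAT2 2.2.1, featureCounts 2.0.3 and the build GRCh38 are listed, without roles, in the submitters' processing notes; annotation, filters and strand setting were not found in the sources used here. Symbols were matched for 34864 genes, and coordinates and lengths are those of GENCODE release 29.

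Library totals and reads were worked back from the FPKM steps within 0.02 reads. The annotated length gave whole reads for 19235 genes and a searched length for 13276, a search that itself brings this about. Odd counts were 26.5% to 29.6% of those from 1 to 20, a pattern that counting both mates of a pair would leave, so reads may stand for fewer fragments. A floor of 3 reads corresponds to 0.039 to 0.051 FPKM at 2 kb and covers counting error only.

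The test was limma 3.58.1 in R 4.3.3 with a variance trend, on FPKM without further scaling. TSPO and TPD52 lie under the filter and were each added to a fit. The length and GC correction removed each library's loess trend (span 0.3) for 12707 genes (99.4%). Only the FPKM, filter and main limma steps were run on simulated counts. The simulation used the same dispersion for every gene and had no library lying between the groups. Its outcome is not given here. The text names the 10 genes, TPD52, up to 3 passing genes per list with the smallest p, CYP11A1, FDX1, FDXR and the 5 genes most like STAR. SOAT2, LIPA, STARD7, STARD10, VDAC1, SREBF2, SCAP, INSIG1 and MBTPS1 were named after their values were seen. Some genes of the lists are not reported here. The genes and lists were chosen with earlier results of these data known.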

Additional observations from a re-analysis of the deposited data

How the results depend on the processing

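The number of genes called, 2341 in all, was 531 without a filter and ran from 87 to 5825 when 1 library was left out. Median-ratio scaling moved the median of all genes from -0.11 to 0.00054 and the calls to 1083 higher and 1038 lower, where 720 were higher and 1621 lower at first. Of the 10 genes, 0 were called lower without a filter, and 1 (NPC1) with median-ratio scaling, rescaling outside mitochondrially encoded genes, no variance trend or the length and GC correction with either kind of length; leaving out 1 library gave 0 to 3. The correction with either kind of length called 2 higher (GRAMD1B and SCARB1), and other settings 0. Of all 12707 genes in that fit, 1327 were called higher, or 1288 with annotated lengths. Genes called in the 7 lists went from 14 to 3 without a filter and to 25 with the correction, and from 0 to 41 with 1 library left out. With the correction 2598 of all 12707 genes were called, or 2527 with annotated lengths. TPD52 lost its call without a filter (-0.65, limma adjusted p = 0.067), with only genes from 5 FPKM up (-0.65, limma adjusted p = 0.0616) and with the correction (-0.50 with either kind of length); with 1 library left out it ran from -0.70 to -0.60 and passed in 1 of 6 cases, without shTPD52 replicate 2 (largest limma adjusted p 0.0996). The causes were not tested.

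Some signs turned. STAR went to 0.11 with median-ratio scaling, 0.066 on rescaling, 0.10 with the correction (0.062 with annotated lengths), and from -0.10 to 0.047 with 1 library left out. SCARB1 went to -0.05 with quantile normalization and from -0.023 to 0.055 with 1 library left out, LIPE from -0.0395 to 0.0725, and NPC2 to 0.0094 with median-ratio scaling. GRAMD1B went to 0.077 with median-ratio scaling, 0.0092 with quantile normalization, 0.0299 on rescaling, 0.31 with the correction (0.33 with annotated lengths), and from -0.15 to 0.056 with 1 library left out. FDXR went to -0.0019 with quantile normalization. The 4 within-library ratios kept their sign without the added 0.5 FPKM, with 1 FPKM added and with 1 library left out. They were not examined with quantile normalization or the length and GC correction.

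Same-numbered libraries did not deviate together throughout (r = 0.045, 0.25 and 0.022), so the replicate number was not taken to pair them, and shTPD52 replicate 3 correlated best with shCtrl replicate 1 (r = 0.28). With the replicate block 3064 genes were called, 2 of the 10 were lower and 0 higher, 20 list genes were called and TPD52 kept its call (-0.65, limma adjusted p = 0.0301). With it PLIN3 (limma adjusted p = 0.0544) and LAMP1 (limma adjusted p = 0.0552) lost theirs and CYP11A1 passed (limma adjusted p = 0.0285).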
